A study of Mus musculus with 9 samples.

Results

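Dio1, the type 1 iodothyronine deiodinase of the liver, was examined together with 8 genes that handle or respond to thyroid hormone, namely Thra, Thrb, Rxra, Ncor1, Ncoa1, Slc16a10, Ttr and Tlcd2. The 9 genes were matched by symbol among 17846 gene rows, and all 9 were found and had enough counts to be tested. The liver transcriptome of 9 male wild-type C57/BL mice was sequenced, 1 library per mouse and 3 mice per group. The Control group (replicates 3, 4 and 29) ate a normal diet. The NASH group (replicates 5, 19 and 20) ate the Ath diet, an atherogenic diet with cholesterol and cholate that induces non-alcoholic steatohepatitis, for 20 weeks and stayed sedentary. The NASH+Exercise group (replicates 8, 18 and 22) ate the same diet for 20 weeks and ran on a treadmill for the last 8 weeks, after 12 weeks of diet. Every mouse was fasted overnight before the liver was taken, so all groups share the fasted state. The NASH and NASH+Exercise mice also share the diet, and no trained mice on a normal diet were analysed here.

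Thyroid hormone leaves the thyroid gland mostly as thyroxine (T4), which is turned into the active hormone T3 by deiodinases in tissues such as the liver. T3 enters cells through membrane transporters and binds receptors in the nucleus, which sit on DNA with a retinoid X receptor partner, hold corepressors when hormone is absent and take up coactivators when it is bound. In liver, T3 acts mainly through the beta receptor on genes of lipid, cholesterol and glucose metabolism, and Dio1 is a classical gene that T3 induces.

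Receptors of this family recognise the 6 bases AGGTCA, often as a pair in the same direction with 4 bases between. The 250 bases before each listed start (RefSeq, build GRCm38.p6) were read for these letters on both strands. A listed start need not be the outer end of the gene. The window of Tlcd2, for instance, ends inside its gene, which is annotated from chr11:75468024. Promoters of 7 of the 9 genes were read, and those of Thra and Ttr were not. The promoters of Dio1 and Tlcd2 are shown because these genes had the largest differences between the trained and the sedentary NASH mice, and the first start of Thrb is shown because it held a match. Capitals mark AGGTCA, and all other bases are in lower case, 5′ to 3′ on the strand of the gene.
Dio1, chr4:107307169-107307418, minus strand: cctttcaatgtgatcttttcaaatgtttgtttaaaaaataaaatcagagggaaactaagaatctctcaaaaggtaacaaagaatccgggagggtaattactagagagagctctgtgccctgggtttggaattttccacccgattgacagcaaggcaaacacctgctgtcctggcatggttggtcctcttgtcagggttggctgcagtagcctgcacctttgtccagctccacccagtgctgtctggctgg
Tlcd2, chr11:75467800-75468049, plus strand: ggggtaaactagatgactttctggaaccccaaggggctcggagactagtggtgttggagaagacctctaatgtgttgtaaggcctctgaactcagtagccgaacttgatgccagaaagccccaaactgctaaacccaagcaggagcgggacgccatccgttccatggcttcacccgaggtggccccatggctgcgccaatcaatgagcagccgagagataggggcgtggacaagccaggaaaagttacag
Thrb, chr14:17660710-17660959, plus strand: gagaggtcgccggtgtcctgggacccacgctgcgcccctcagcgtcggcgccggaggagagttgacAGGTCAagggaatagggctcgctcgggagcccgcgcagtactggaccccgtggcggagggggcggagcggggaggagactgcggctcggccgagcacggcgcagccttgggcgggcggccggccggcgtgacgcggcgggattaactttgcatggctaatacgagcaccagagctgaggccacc
The Thrb match began 184 bases before the start. Rxra had 2 matches before its second listed start, at 87 bases on the opposite strand and 48 bases on its own strand. No AGGTCA was read in the windows of Dio1, Tlcd2, Ncor1, Ncoa1 or Slc16a10, nor at the other start of Thrb or Rxra. Over all 32851 mouse promoters of this length 14.0% held AGGTCA, and 0.0152% held the pair with 4 bases between, on either strand, which was not read in any of the 7 promoters. A match in letters is not a bound site, and sequence outside these windows was not read.

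Levels below are CPM, counts scaled to the library size adjusted by the TMM method of edgeR, or TPM where genes are compared with each other, since TPM allows for transcript length. A gene passed the test when edgeR's quasi-likelihood p, corrected by the Benjamini-Hochberg procedure over the 13619 genes tested, was under 0.05. On the TPM scale Ttr stood far above the other genes, with 7562.64 to 9031.1 in the Control mice, followed by Rxra with 128.65 to 165.95. Dio1 (27.25 to 58.01), Slc16a10 (33.72 to 37.5) and Tlcd2 (20.5 to 35.94) came next and overlapped from each gene to the next. Ncor1 followed, then Thra (9.34 to 13.43), Thrb (2.69 to 8.37) and Ncoa1 (3.83 to 4.47), of which Thrb and Ncoa1 overlapped. The order changed in the NASH+Exercise mice, where the highest Dio1 TPM of 155.41 lay within the range of Rxra (143.52 to 162.46) and Tlcd2 came before Slc16a10.

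**Figure D1:**
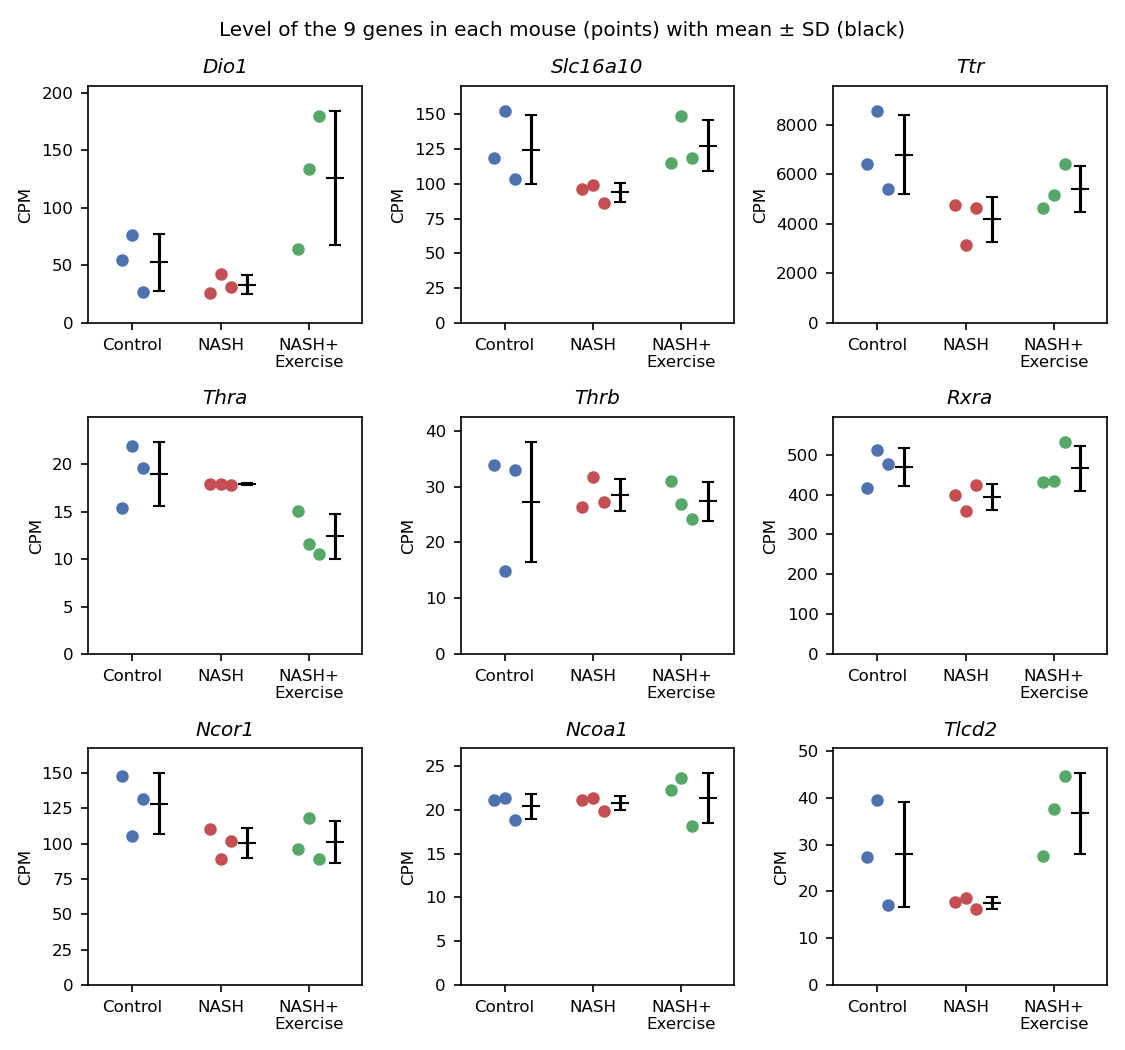
Level of each of the 9 genes in CPM (vertical axes, starting at 0) in the mice of the Control, NASH and NASH+Exercise groups, with 1 point per mouse and the mean ± SD of 3 mice in black. Dio1 and Tlcd2 were higher in all NASH+Exercise mice than in any NASH mouse, Thra was lower, and 1 Control mouse stood apart for Thrb at 14.9 CPM.

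Dio1 (Entrez Gene 13370) removes iodine from T4 to give T3 and also clears inactive iodothyronines. Its level was 54.9, 76.5 and 27.2 CPM in Control mice 3, 4 and 29, it was 26.5, 42.2 and 31.0 CPM in NASH mice 5, 19 and 20, and it was 64.7, 134 and 180 CPM in NASH+Exercise mice 8, 18 and 22. Every trained mouse was above every sedentary NASH mouse, while the trained and the Control mice overlapped, since Control mouse 4 was above NASH+Exercise mouse 8. The group means were 52.9 ± 24.7, 33.2 ± 8.06 and 126 ± 57.9 CPM (SD, n = 3 each). The NASH+Exercise mean was thus 3.79-fold that of the NASH group in the fit, a log2 fold change of 1.92 ± 0.43 (SE), yet the adjusted p of edgeR was 0.128, above the threshold. By unadjusted p (0.00149) Dio1 took place 157 of 13619 genes, and 0.587% of the genes had a difference at least as large. Leaving out each mouse in turn gave log2 fold changes of 1.58 to 2.24 and adjusted p-values of 0.0654 to 0.346. DESeq2, the tool that the study used, on the 6 mice of these groups gave 1.98 with an adjusted p of 8.19e-08, so whether Dio1 passed differed between the tools while the size of the difference did not.

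Against Control, Dio1 was not called by edgeR in either diet group. The NASH group had a log2 fold change of -0.67 ± 0.42 (edgeR adjusted p = 0.254), and the NASH+Exercise group had one of 1.25 ± 0.42 (edgeR adjusted p = 0.0584). The latter lay next to the threshold and crossed it with DESeq2 (1.23, adjusted p = 0.0133), with scaling by library size only (1.41, edgeR adjusted p = 0.0231), on log2(TPM + 1) values in limma (1.37, adjusted p = 0.0199), without Control mouse 4 (1.64, edgeR adjusted p = 0.0493) and without NASH+Exercise mouse 8 (1.57, edgeR adjusted p = 0.0210). These comparisons share the Control mice, and both diet comparisons of the trained mice share the NASH+Exercise mice, so their values are not independent of each other. In whole liver, fewer cells of a type and less RNA per cell cannot be told apart, and the marker sums of the main cell types are given below.

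The other deiodinases were almost undetected in these livers. Dio2, which makes T3 in tissues such as brain and brown fat, had 0 to 1 counts per mouse, and Dio3, which inactivates T4 and T3, had 1 to 14 counts per mouse, so neither was tested.

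Tlcd2 (Entrez Gene 380712) encodes a membrane protein with a TLC domain and is among the genes that the study lists as induced by T3 in mouse liver. Its level was 27.3, 39.5 and 17.0 CPM in Control mice 3, 4 and 29. It was 17.7, 18.7 and 16.3 CPM in NASH mice 5, 19 and 20, and 27.6, 37.7 and 44.6 CPM in NASH+Exercise mice 8, 18 and 22. As for Dio1, all 3 trained mice were above all 3 sedentary NASH mice, and the Control mice overlapped with both groups. The log2 fold change of NASH+Exercise over NASH was 1.06 ± 0.27, with an edgeR adjusted p of 0.143 and place 288 by unadjusted p, and 3.99% of the genes differed by as much. DESeq2 gave 1.11 with an adjusted p of 1.30e-05. In the NASH group the log2 fold change against Control was -0.67 ± 0.27 (edgeR adjusted p = 0.0820), which passed with DESeq2 (-0.72, adjusted p = 0.0428) and in edgeR without Control mouse 29 (-0.97, adjusted p = 0.00795). NASH+Exercise against Control gave 0.39 ± 0.27 (edgeR adjusted p = 0.334), which passed without Control mouse 4 (0.75, edgeR adjusted p = 0.0481).

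Slc16a10 (Entrez Gene 72472) encodes MCT10, a transporter of T3 and of aromatic amino acids. Its level was 119, 152 and 103 CPM in the Control mice, 96.3, 98.9 and 86.1 CPM in the NASH mice and 115, 149 and 118 CPM in the NASH+Exercise mice, in the order of replicates given above. The NASH mice were below both other groups without overlap, but neither difference passed the test. The log2 fold change was -0.41 ± 0.16 in NASH against Control (edgeR adjusted p = 0.0723) and 0.44 ± 0.16 in NASH+Exercise against NASH (edgeR adjusted p = 0.245). In the first comparison the value passed without Control mouse 29 (-0.57, edgeR adjusted p = 0.0273), and on log2(TPM + 1) values it turned to 0.021. In the second comparison DESeq2 gave 0.49 with an adjusted p of 0.0359, while the value on log2(TPM + 0.1) was 0.12.

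Ttr (Entrez Gene 22139, on chromosome 18) encodes transthyretin, a plasma carrier of T4 and of the retinol-binding protein that the liver secretes. Its level was 6405, 8537 and 5420 CPM in the Control mice, 4775, 3141 and 4627 CPM in the NASH mice, and 4642, 5171 and 6429 CPM in the NASH+Exercise mice. Every NASH mouse was below every Control mouse, and the trained mice overlapped with both groups. Ttr was the only 1 of the 9 genes to pass in NASH against Control, with a log2 fold change of -0.70 ± 0.23 (edgeR adjusted p = 0.0387), where 35.6% of all genes passed (21.2% higher and 14.4% lower). The call was lost without Control mouse 3 (-0.74, adjusted p = 0.0690), Control mouse 4 (-0.52, 0.105), NASH mouse 5 (-0.81, 0.0540), NASH mouse 19 (-0.57, 0.134) or NASH mouse 20 (-0.78, 0.0626), all edgeR. It was also lost with scaling by library size only (-0.34, edgeR adjusted p = 0.0993), with edgeR on the 6 mice compared (-0.70, adjusted p = 0.0574) and in limma on log2(TPM + 1) (-0.26, adjusted p = 0.120) and log2(TPM + 0.1) (-0.26, adjusted p = 0.118). NASH+Exercise against NASH gave 0.37 ± 0.23 (edgeR adjusted p = 0.473).

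Thra (Entrez Gene 21833) encodes the alpha receptor, which prevails in heart, bone and brain. Its level was 15.3, 21.9 and 19.6 CPM in the Control mice, 17.91, 17.97 and 17.77 CPM in the NASH mice and 15.1, 11.6 and 10.5 CPM in the NASH+Exercise mice. The trained mice were below all mice of both other groups, and the NASH mice were almost level with each other. Thra was the only 1 of the 9 genes to pass in NASH+Exercise against Control, with a log2 fold change of -0.61 ± 0.17 (edgeR adjusted p = 0.0222), where 25.1% of all genes passed (15.6% higher and 9.58% lower). Against NASH the value was -0.53 ± 0.17 (edgeR adjusted p = 0.2001). The call against Control was lost without Control mouse 4 (-0.48, adjusted p = 0.0702), NASH+Exercise mouse 18 (-0.56, 0.0757) or NASH+Exercise mouse 22 (-0.51, 0.0748), all edgeR, and with scaling by library size only (-0.44, edgeR adjusted p = 0.155). It was lost too with edgeR on the 6 mice compared (-0.57, adjusted p = 0.0699) and in limma on log2(TPM + 1) (-0.43, adjusted p = 0.176) and log2(TPM + 0.1) (-0.47, adjusted p = 0.165). Thra lies at chr11:98740776-98769006 and shares 1075 bases with the clock gene Nr1d1 (chr11:98767932-98775377), which is known to be read from the opposite strand. The strand of the libraries is not given in the sources used here, so reads from the shared bases cannot be assigned to either gene. Nr1d1 varied widely between mice, with 24.9, 34.5 and 97.4 CPM in Control, 64.3, 94.6 and 124 CPM in NASH and 102, 6.47 and 82.0 CPM in NASH+Exercise, and its part in the Thra values was not tested.

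Thrb (Entrez Gene 21834), the main thyroid hormone receptor of hepatocytes, showed no difference that passed in any comparison. Its level was 33.8, 14.9 and 33.0 CPM in the Control mice, 26.4, 31.8 and 27.2 CPM in the NASH mice and 31.0, 26.9 and 24.2 CPM in the NASH+Exercise mice. Control mouse 4 was the lowest of all mice for Thrb and the highest for Thra. The log2 fold changes were -0.06 ± 0.26 for NASH+Exercise against NASH, 0.06 ± 0.26 for NASH against Control and 0.01 ± 0.26 for NASH+Exercise against Control, and without Control mouse 4 the last of these became -0.27 and the second -0.25.

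The ratio of the Thrb TPM to the Thra TPM within a library does not depend on scaling between libraries. It was 0.782, 0.236 and 0.623 in the Control mice, 0.545, 0.671 and 0.561 in the NASH mice and 0.754, 0.809 and 0.820 in the NASH+Exercise mice. All trained mice thus had a higher ratio than any sedentary NASH mouse, a mean difference of 0.43 on the log2 scale, with an exact two-sided permutation p of 0.1, the smallest that 3 against 3 mice allow. Against Control the difference of the trained mice was 0.71 (exact permutation p = 0.2) and that of the NASH mice was 0.28 (exact permutation p = 0.9), and the latter became -0.24 without Control mouse 4.

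Rxra (Entrez Gene 20181), the partner with which the receptors bind DNA, was measured at 417, 512 and 477 CPM in Control, 399, 359 and 425 CPM in NASH and 431, 435 and 531 CPM in NASH+Exercise. The trained mice lay just above the NASH mice without overlap, and no difference passed. The log2 fold change of NASH+Exercise over NASH was 0.24 ± 0.14 (edgeR adjusted p = 0.456) and turned to -0.061 on log2(TPM + 1) values. The scale bears on all small values here: scaling by library size only moved the all-gene median of the log2 fold changes by -0.20 in NASH+Exercise against NASH, by 0.35 in NASH against Control and by 0.15 in NASH+Exercise against Control.

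Ncor1 (Entrez Gene 20185), the corepressor that unliganded receptors hold, lay between 105 and 148 CPM in Control, 89.2 and 110 CPM in NASH, and 89.2 and 118 CPM in NASH+Exercise. The log2 fold change was 0.01 ± 0.16 between the trained and the sedentary NASH mice, while against Control it was -0.35 ± 0.16 in NASH (edgeR adjusted p = 0.110) and -0.34 ± 0.16 in NASH+Exercise (edgeR adjusted p = 0.146). The value in NASH against Control passed without Control mouse 4 (-0.49, edgeR adjusted p = 0.0288) and turned to 0.085 on log2(TPM + 1) values. Ncoa1 (Entrez Gene 17977), a coactivator of nuclear receptors also called SRC-1, was the steadiest of the 9 genes in CPM, between 18.2 and 23.6 CPM in all 9 mice. In TPM its NASH mice (5.32 to 6.5) lay above its Control mice (3.83 to 4.47) without overlap. Its log2 fold changes were 0.04 ± 0.13, 0.02 ± 0.13 and 0.06 ± 0.13 in the comparisons of NASH+Exercise with NASH, NASH with Control and NASH+Exercise with Control.

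**Figure D2:**
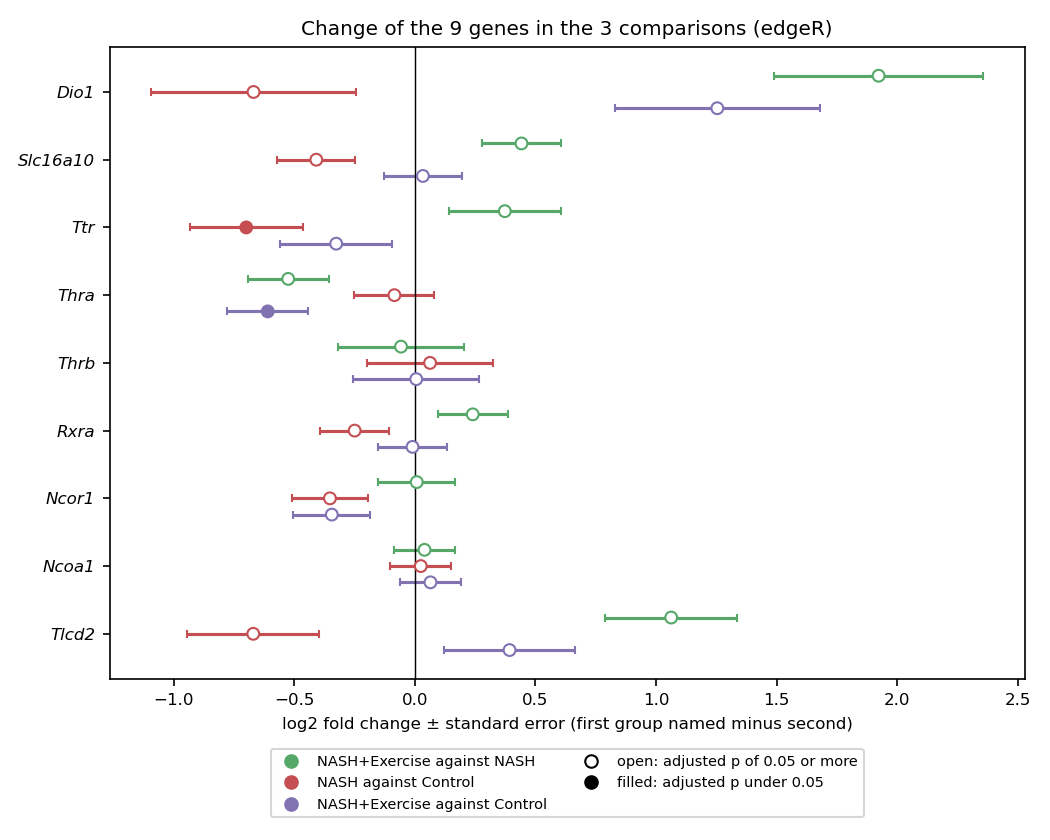
Log2 fold change ± SE (horizontal axis, edgeR) of the 9 genes in the 3 comparisons, with filled points for an adjusted p under 0.05. Ttr in NASH against Control and Thra in NASH+Exercise against Control are filled, and Dio1 has the widest separation of its comparisons, from -0.67 to 1.92. Values near 0 for Rxra, Ncor1, Ncoa1 and Thrb change sign with the scaling or the mice used. Those of Slc16a10 (-0.41) and Ncor1 (-0.35) in NASH against Control change sign on TPM values.

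Of the 9 genes, 0 passed in NASH+Exercise against NASH with edgeR, against 0.162% of all genes (0.11% higher and 0.0514% lower), and 3 passed with DESeq2 (Dio1, Tlcd2 and Slc16a10), by which 3.87% of all genes passed. At an unadjusted p under 0.05 the count was 4 (Dio1, Tlcd2, Thra and Slc16a10), where 15.3% of all genes fell under that limit. In CPM the groups did not overlap for 5 of the 9 genes in this comparison, beside 24.1% of all genes (9.16% higher and 14.9% lower). Dio1, Rxra, Slc16a10 and Tlcd2 were higher and Thra was lower. In TPM, Rxra overlapped (143.52 to 162.46 in NASH+Exercise, 159.68 to 165.81 in NASH). Slc16a10 overlapped too (32.43 to 44.89 and 30.97 to 40.51), whereas Ncor1 did not (15.17 to 21.89 and 22.41 to 25.21). In NASH against Control 2 of the 9 did not overlap in CPM (Ttr and Slc16a10, both lower) beside 49.6% of all genes (27.4% higher and 22.2% lower). Both overlapped in TPM, where Thra and Ncoa1 were higher in NASH without overlap. In NASH+Exercise against Control 1 did not overlap in CPM (Thra, lower) beside 38.6%. There Thra overlapped in TPM, and Dio1 did not (70.06 to 155.41 in NASH+Exercise, 27.25 to 58.01 in Control). The share of all genes was not taken in TPM. An unadjusted p under 0.05 was found for 4 of the 9 in NASH against Control, where 45.3% of all genes had one, and for 2 in NASH+Exercise against Control, where 36.3% had one. The median log2 fold change of the 9 genes was 0.24, -0.35 and 0.01 in these 3 comparisons, where that of all genes was -0.03, 0.01 and 0.00.

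Markers of the main liver cell types were read in the same libraries. The counts of markers below stand beside 35.6% of all genes that passed in NASH against Control (21.2% higher and 14.4% lower). In NASH+Exercise against Control the share was 25.1% (15.6% higher and 9.58% lower), and in NASH+Exercise against NASH it was 0.162%. The summed TPM of 7 macrophage markers lay between 69.6 and 141 in the Control mice, between 1059 and 1386 in the NASH mice and between 708 and 912 in the trained mice, and all 7 passed in both comparisons against Control. The sum of 7 stellate cell markers was 69.3 to 179, 238 to 405 and 145 to 219 in the same order, with 5 and 4 of 7 genes passing higher. The 8 hepatocyte markers summed to 95480 to 109009, 87512 to 107221 and 75266 to 94841 TPM. Of these 8 genes 2 passed lower in NASH, and 1 passed higher and 1 lower in NASH+Exercise. Most of the hepatocyte sum was Alb (39314 to 60579 TPM in the trained mice), and most of the stellate cell sum was Dcn (59.92 to 163.47 TPM in Control). Neither Alb nor Dcn passed against Control in either diet group, so these 2 sums mainly follow 1 gene each. T cell markers passed in 4 of 4 genes against Control in both diet groups, neutrophil markers in 3 of 4, and cholangiocyte markers in 3 of 5 in NASH and 1 of 5 in NASH+Exercise, whereas endothelial markers passed in 3 of 5 in NASH only and B cell markers in none. In NASH+Exercise against NASH no marker of any list passed with edgeR, and the median log2 fold changes were -1.45 for cholangiocyte, -0.85 for stellate cell, -0.74 for B cell, -0.71 for T cell, -0.37 for macrophage, -0.22 for endothelial, -0.16 for neutrophil and 0.18 for hepatocyte markers. The cholangiocyte median is the value of Spp1, which was at 341 CPM in NASH mouse 19 and at 83.2 and 87.3 CPM in NASH mice 5 and 20. All cholangiocyte markers overlapped between the NASH+Exercise and the NASH mice. None of the marker lists had a gene at 0 in every mouse. The part of these marker levels in the values of Dio1, Ttr, Thra and the other genes was not tested.

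The profile of Dio1 over the 9 mice was compared with that of 6655 genes whose log2 CPM, centred on the mean of the gene, ranged over more than 1. The most alike, by root mean square difference, were Gstp2 (0.440), Tlcd2 (0.454), Slc46a3 (0.480), Slc22a7 (0.481) and Car1 (0.491). These 5 genes were chosen on the same 9 mice. Group differences like those of Dio1 therefore follow from the choice and are not separate evidence. Gstp2 is a glutathione transferase that is nearly identical to Gstp1, so the division of reads between them is uncertain, Slc46a3 is a lysosomal transporter, Slc22a7 is the organic anion transporter OAT2 and Car1 is a carbonic anhydrase of red blood cells. Among the other 8 genes Ttr took place 518, Thrb 2360 and Thra 3578, while Rxra, Ncor1, Ncoa1 and Slc16a10 had a range under 1 and no place. Tlcd2 and Slc22a7 are both in the list of T3-induced genes described below. Slc22a7 was at 4.88, 13.8 and 5.15 CPM in Control, 7.07, 7.18 and 4.38 CPM in NASH and 18.8, 29.7 and 26.8 CPM in NASH+Exercise. Its trained mice were above all other mice, with a log2 fold change over NASH of 2.01 ± 0.39 (edgeR adjusted p = 0.108) and over Control of 1.66 ± 0.39 (edgeR adjusted p = 0.0120), lost without Control mouse 29 (1.40, edgeR adjusted p = 0.0528).

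**Figure D3:**
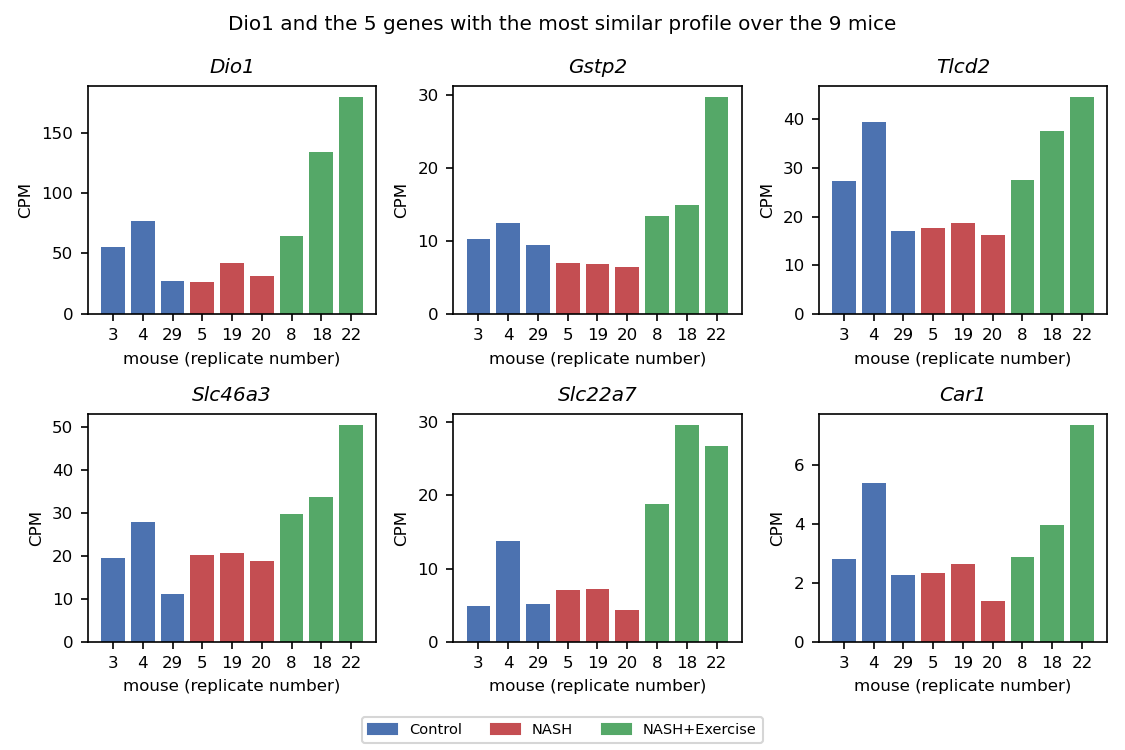
Level in CPM (bars, vertical axes starting at 0) of Dio1 and the 5 genes with the most similar profile in each mouse, named by replicate number and coloured by group. In all 6 genes the NASH+Exercise mice 8, 18 and 22 stand above the NASH mice 5, 19 and 20. Control mouse 4 is the highest of the Control mice. The 5 genes were chosen for their likeness to Dio1 in these mice, so the shared order follows from the choice.

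The wider pathway was described with lists of 77 genes in all, of which 64 had enough counts to be tested. None passed in NASH+Exercise against NASH with edgeR (15 at an unadjusted p under 0.05, 9 with DESeq2), whereas 21 passed in NASH against Control, 6 higher and 15 lower, and 28 passed in NASH+Exercise against Control, 11 higher and 17 lower. Of all genes 0.162%, 35.6% and 25.1% passed in these comparisons with edgeR, and 15.3% had an unadjusted p under 0.05 in the first. With DESeq2 3.87% of all genes passed in the first. The genes that passed with DESeq2 in the first comparison were Dio1, Tlcd2, Slc16a10, Slc22a7, Ces4a, Bcl3 and Slco1a1, all higher, and Pdk4 and Slco1a4, both lower, and are named here after their values were seen. Without NASH+Exercise mouse 8, Bcl3 (1.22, adjusted p = 0.0324) and Ces4a (2.34, adjusted p = 0.0404) passed with edgeR.

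Among the enzymes of hormone turnover, 1 of 5 tested passed in NASH against Control and 2 in NASH+Exercise against Control, and all of these were lower. Of all genes 35.6% and 25.1% passed in these comparisons (14.4% and 9.58% lower). Ugt1a1, which attaches glucuronic acid to T4 and to bilirubin and shares exons with other genes of its cluster, had log2 fold changes of -1.01 ± 0.18 (edgeR adjusted p = 0.00139) and -0.74 ± 0.18 (edgeR adjusted p = 0.0109). Sult1a1, a sulfotransferase that acts on phenols and iodothyronines, was lower in the trained mice than in Control by -0.85 ± 0.15 (edgeR adjusted p = 0.00225). In NASH against Control Sult1a1 did not pass in the main fit but passed with DESeq2. Leaving out 1 mouse at a time, it was lower there in all 6 edgeR fits (-0.53 to -0.29) and passed in 2.

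Of 10 transporters tested, 5 passed in NASH against Control (2 higher, 3 lower), where 35.6% of all genes passed, and 4 in NASH+Exercise against Control (2 higher, 2 lower), where 25.1% did. Without NASH mouse 5 the first count was 3, 2 higher and 1 lower. Slc7a8, the LAT2 amino acid carrier that also takes up T3, was at 2.52, 2.67 and 4.44 CPM in the Control mice. It rose to 22.7, 19.1 and 21.4 CPM in NASH, a log2 fold change of 2.71 ± 0.21 (edgeR adjusted p = 9.46e-06), and was at 17.1, 14.2 and 16.8 CPM in NASH+Exercise (2.31 ± 0.21 over Control). Slc17a4, an organic anion transporter that carries thyroid hormone, rose by 1.28 ± 0.18 in NASH and by 1.04 ± 0.18 in NASH+Exercise. Slc10a1, the bile acid uptake carrier NTCP, fell in NASH (-1.19 ± 0.15), as did Slco1a1 (-1.02 ± 0.31) and Slco1a4 (-0.93 ± 0.27), which are uptake carriers for organic anions including thyroid hormones. The call for Slco1a1 was lost without Control mouse 3 (-0.90), Control mouse 29 (-0.92), NASH mouse 5 (-0.84) or NASH mouse 19 (-0.91), and that for Slco1a4 without Control mouse 3 (-0.84) or NASH mouse 5 (-0.96). Both were also lost with library size only (-0.71 and -0.61) and in limma on log2(TPM + 1) (-0.61 and -0.52) and log2(TPM + 0.1) (-0.61 and -0.54), and Slco1a1 with edgeR on the 6 mice compared (-1.02, adjusted p = 0.0512). Slc10a1 also fell in NASH+Exercise (-0.92 ± 0.15). Slco1a4 was at 85.2, 59.7 and 81.6 CPM in Control and at 20.6, 14.9 and 11.7 CPM in NASH+Exercise, the largest fall among the transporters that passed in that comparison (-2.26 ± 0.28, edgeR adjusted p = 0.000367).

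Few binding proteins, receptors and cofactors passed, where 35.6% of all genes passed in NASH against Control and 25.1% in NASH+Exercise against Control. Of 4 binding proteins only Ttr passed, in NASH against Control, and with library size only Crym, a T3-binding protein of the cytosol, passed in its place (1.08, edgeR adjusted p = 0.0370). Among the 5 receptor genes Rxrb passed in NASH against Control (-0.48 ± 0.16, edgeR adjusted p = 0.0361), and Rxrg (-1.01 ± 0.17, edgeR adjusted p = 0.00144) and Thra passed in NASH+Exercise against Control, all lower. Of 9 coactivators Ncoa3 passed against Control in NASH (0.50 ± 0.14, edgeR adjusted p = 0.0170) and in NASH+Exercise (0.42 ± 0.14, edgeR adjusted p = 0.0467). Leaving out 1 mouse at a time, Ncoa3 passed in 3 of 6 fits in NASH (lost without Control mouse 29, 0.39, NASH mouse 5, 0.38, or NASH mouse 19, 0.48) and in 0 of 6 in NASH+Exercise (0.33 to 0.47). Rxrb passed in 2 of 6, without Control mouse 29 (-0.64) or NASH mouse 5 (-0.56), and otherwise had -0.52 to -0.32. Its call was also lost with library size only (-0.12), with edgeR (-0.47) and DESeq2 (-0.52) on the 6 mice compared and in limma on log2(TPM + 1) (-0.03) and log2(TPM + 0.1) (-0.03).

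**Figure D4:**
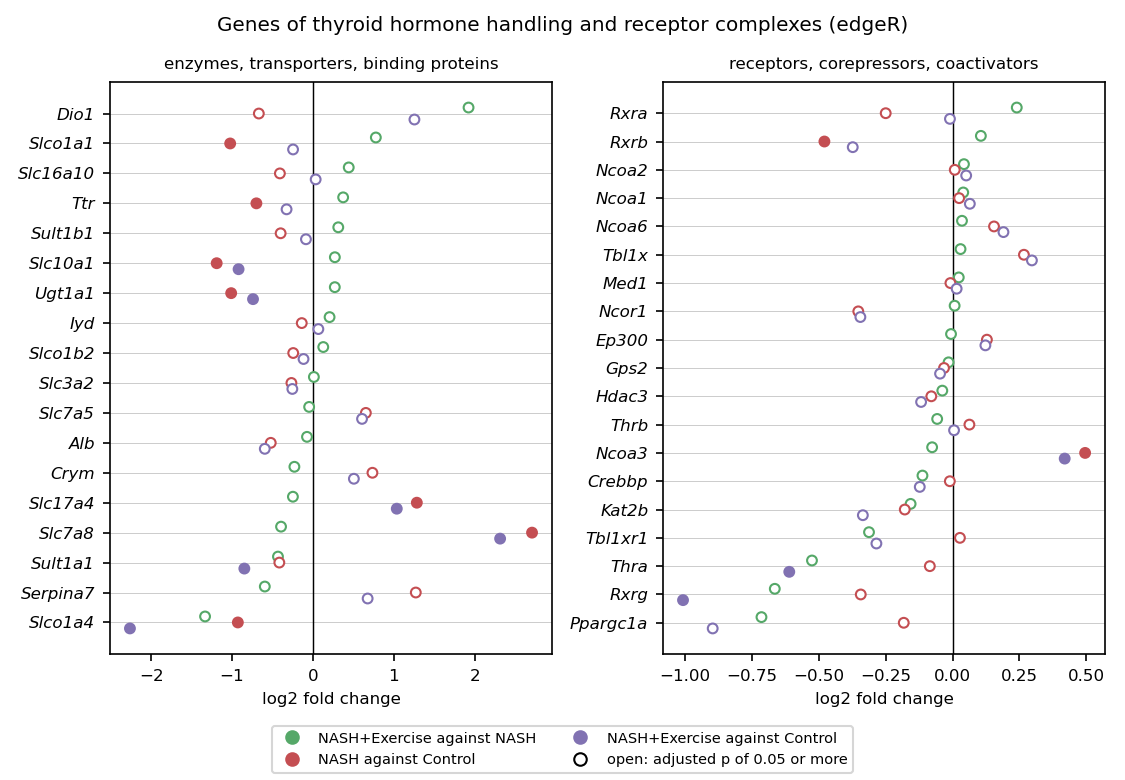
Log2 fold change (horizontal axes, edgeR) of tested genes of hormone handling on the left and of the receptor and cofactor complexes on the right, in the 3 comparisons, with filled points for an adjusted p under 0.05. The horizontal scales differ: the left panel runs from Slco1a4 at -2.26 to Slc7a8 at 2.71, whereas the right panel lies between -1.01 (Rxrg) and 0.50 (Ncoa3).

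Whether genes that T3 induces moved with Dio1 was read from a textbook list of 13 liver genes and from the T3 response signature that the study drew from other mouse liver data sets. Of the textbook list 0 passed in NASH+Exercise against NASH with edgeR (4 at an unadjusted p under 0.05). Among all genes 0.162% passed there and 15.3% had an unadjusted p under 0.05. In NASH against Control 6 textbook genes passed, all lower, beside 35.6% of all genes (14.4% lower). In NASH+Exercise against Control 7 passed, 6 of them lower, beside 25.1% of all genes (9.58% lower). The 13 log2 fold changes had a median of -0.17, -0.92 and -0.90 in these comparisons. Pdk4, which restrains glucose oxidation, was at 207, 110 and 87.2 CPM in Control, 6.94, 2.25 and 8.88 CPM in NASH and 1.70, 1.65 and 1.02 CPM in NASH+Exercise, and fell by 4.49 and by 6.52 on the log2 scale against Control. Me1, the malic enzyme that supplies NADPH for lipid synthesis, fell by 2.15 in NASH, and G6pc, the glucose-6-phosphatase of gluconeogenesis, fell by 2.003 in NASH and by 2.39 in NASH+Exercise. Thrsp, a lipogenic gene named for its response to thyroid hormone, was the exception, with 27.3, 20.6 and 199 CPM in the trained mice beside 10.1, 9.95 and 4.69 CPM in Control. Its log2 fold change over Control was 3.32 ± 0.83 (edgeR adjusted p = 0.0168), NASH+Exercise mouse 22 stood far above the other mice, and the call was lost without Control mouse 3 (3.49, edgeR adjusted p = 0.0518), 4 (3.50, 0.0724) or 29 (3.02, 0.0757). Without NASH+Exercise mouse 22 the value was 1.54 (edgeR adjusted p = 0.00870).

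The signature has 21 genes, of which 20 were matched and 15 could be tested, and Sult2a1 was not analysed here. Dio1, Tlcd2, Slc22a7 and Thrsp belong to it. In NASH+Exercise against NASH 0 of the 15 passed with edgeR (6 at an unadjusted p under 0.05), with 8 of the 15 higher and 7 lower. Among all genes 0.162% passed there and 15.3% had an unadjusted p under 0.05. In NASH against Control 6 passed, 3 higher and 3 lower, and in NASH+Exercise against Control 12 passed, 7 higher and 5 lower, beside 35.6% and 25.1% of all genes. Without Control mouse 29 the latter count was 7, 3 higher and 4 lower. Slc13a5, the citrate transporter, rose by 4.07 ± 0.30 in NASH and by 3.89 ± 0.30 in NASH+Exercise, whereas Cyp17a1, an enzyme of steroid synthesis, changed by -2.07 ± 0.40 and -2.75 ± 0.42, and Sqle, an enzyme of cholesterol synthesis, fell in NASH (-2.25 ± 0.23). The medians of the 15 genes were 0.09, -0.67 and 1.25 in the comparisons of NASH+Exercise with NASH, NASH with Control and NASH+Exercise with Control. Those of all genes were -0.03, 0.01 and 0.00. Dio1 is in both lists, and the signature medians in both comparisons against Control are the values of Dio1 itself. In NASH+Exercise against Control 9 of the 15 genes were higher and 6 lower, so the median of 1.25 is not a shared rise.

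**Figure D5:**
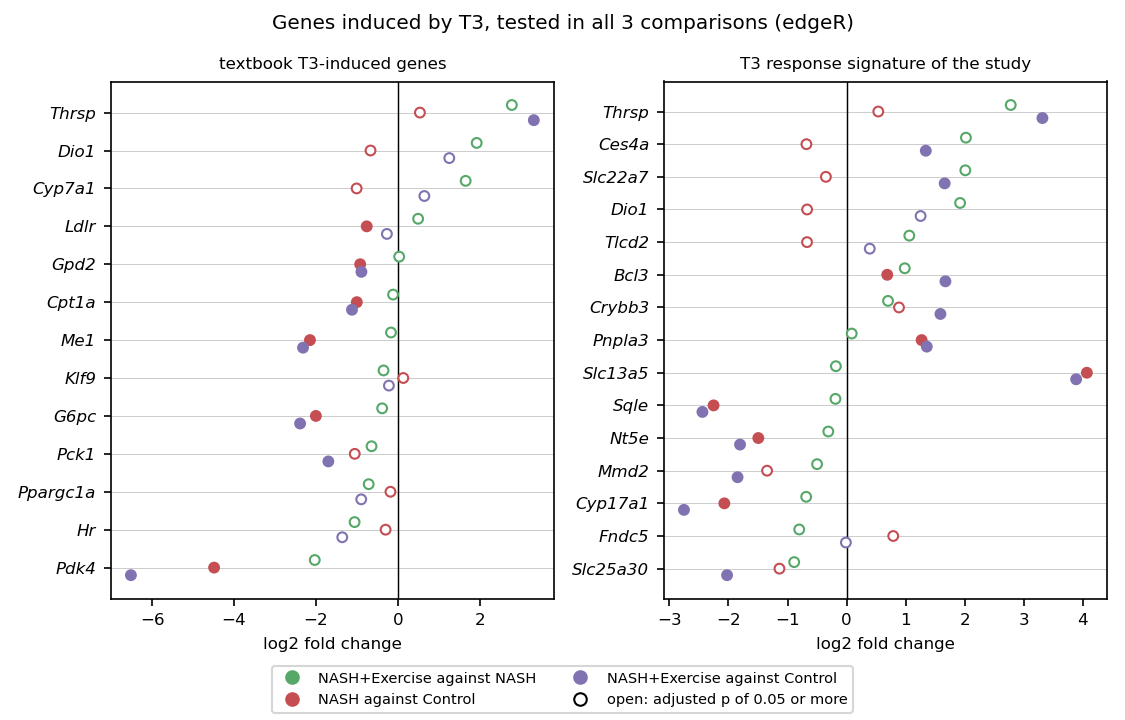
Log2 fold change (horizontal axes, edgeR) of the 13 textbook genes and of the 15 tested signature genes in the 3 comparisons, with filled points for an adjusted p under 0.05. Dio1, Thrsp, Slc22a7, Ces4a and Tlcd2 are among the genes to the right in NASH+Exercise against NASH, with open points. In that comparison 5 textbook genes were higher and 8 lower, and 8 signature genes were higher and 7 lower. Pdk4, Me1, G6pc, Sqle and Cyp17a1 lie to the left with filled points in both comparisons against Control.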

How the data were processed

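Liver RNA of 9 mice was sequenced, 1 library per mouse, with 3 mice per group. The authors deposited, for each gene and mouse, an estimated count, a TPM value and an FPKM value. Per the labels, reads were processed with HISAT2 2.1.0, Bowtie2 2.2.5 and RSEM 1.2.8 on GRCm38.p6, and the deposited estimated counts need not be whole because reads that fit several transcripts are divided. Counts were whole in every mouse for Dio1, Rxra and Ttr, and divided for Thra, Thrb, Ncor1, Slc16a10 and Tlcd2. The FPKM values that the authors deposited were not used. The same mouse appears in several files, and none of the 428304 shared values differed. Totals were 20086004 to 22495449 estimated counts per mouse, and mice are the only replicates, so errors cover the spread between mice.

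Estimated counts were rounded and tested with edgeR 4.0.16 (filterByExpr with minimum count 10 and minimum total 15, TMM, a robust quasi-likelihood model holding the 9 mice and only the group, residual degrees of freedom 6) in R 4.3.3, with Benjamini-Hochberg adjustment over 13619 genes. SE is the log2 fold change divided by the root of the F statistic. The study called genes with DESeq2 by the adjusted p (limit 0.05) and the size of the log2 fold change (limit 1), and DESeq2 1.42.0 on the 6 mice compared was an alternative, as was limma 3.58.1 on log2(TPM + 1) and log2(TPM + 0.1). Other alternatives were DESeq2 size factors, library size only, no filter, edgeR on the 6 mice compared and leaving out each mouse. The ratio of Thrb to Thra was compared by an exact permutation test. The named pathway genes are, for each list and comparison, the 3 with the largest absolute log2 fold change among those that passed, and the 5 genes most like Dio1 were taken by root mean square difference of centred log2 CPM (prior count 2). The 9 genes, the pathway lists and the marker lists were chosen with earlier results of these data known. The fitting code was tested on simulated data with known changes. A few genes of the lists are counted in the totals but not reported here by name. Promoter sequences are from RefSeq. Figures were drawn with matplotlib 3.10.9.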

Additional observations from a re-analysis of the deposited data

How the results depend on the processing

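No paired analysis was possible because no replicate number occurs in more than 1 group. Counts for the 9 genes and the pathway lists are of an adjusted p under 0.05, and those over all genes also ask for an absolute log2 fold change above 1. In NASH+Exercise against NASH, the 9 genes gave 3 calls with DESeq2, the pathway lists gave 1 with edgeR on 6 mice, 9 with DESeq2 and 3 with limma on log2(TPM + 1), and all genes gave 204 with DESeq2 and 103 with limma on log2(TPM + 1) beside 19. Leaving out each mouse gave 0 to 34 calls over all genes and 0 to 2 in the pathway lists. Dio1 had 1.98 with DESeq2. In NASH against Control, the 9 genes gave 0 calls with library size only, with edgeR on 6 mice and with both limma fits, 2 with DESeq2 and 0 to 3 without each mouse. In NASH+Exercise against Control, they gave 0 with edgeR on 6 mice, 2 with DESeq2 and 0 to 2 without each mouse. There all genes gave 1068 calls with limma on log2(TPM + 1) beside 1836 at both limits, and Dio1 passed with library size only (1.41), DESeq2 (1.23) and limma (1.37 and 1.39), with 0.91 to 1.64 without each mouse.

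In NASH against Control, Slc16a10 (-0.41) and Ncor1 (-0.35) turned sign on TPM values, although both had an unadjusted p of edgeR under 0.05. The other signs that turned were those of smaller log2 fold changes. In NASH+Exercise against NASH these were Ncor1 (-0.19 with library size only, -0.29 on log2(TPM + 1), -0.30 on log2(TPM + 0.1), and -0.11 to 0.093 without each mouse), Ncoa1 (-0.16, -0.23, -0.27, and -0.035 to 0.15), Rxra (-0.061 on log2(TPM + 1), -0.062 on log2(TPM + 0.1)) and Thrb (-0.15 to 0.048 without each mouse). In NASH against Control, library size only, log2(TPM + 1) and log2(TPM + 0.1) gave 0.27, 0.33 and 0.36 for Thra and 0.10, 0.18 and 0.19 for Rxra, and the TPM fits gave 0.085 and 0.090 for Ncor1 and 0.021 and 0.021 for Slc16a10. Ncoa1 gave -0.0077 with DESeq2 size factors, -0.012 with no filter, -0.013 with DESeq2 and -0.071 to 0.055 without each mouse, as Thra gave -0.22 to 0.014, Thrb -0.25 to 0.24 and the log2 ratio of Thrb to Thra -0.24 to 0.62. In NASH+Exercise against Control, Rxra gave 0.13 with library size only, 0.027 with edgeR on 6 mice, 0.12 and 0.12 on TPM and -0.12 to 0.079 without each mouse. Thrb gave -0.0081 with DESeq2 size factors, -0.0026 with no filter, -0.015 with DESeq2 and -0.27 to 0.19 without each mouse, Slc16a10 -0.11 to 0.22 and Ncoa1 -0.015 to 0.17. The cause of these changes was not tested. Over the single genes 273 values kept sign and side of the threshold, 48 turned, 14 newly passed and 16 no longer passed.

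Groups of 3 mice give a poor estimate of the spread, while the 9 genes had at least 216.03 counts in every mouse. The TPM fits carry no scaling for composition, and their median over all genes moved by up to 0.43 on the log2 scale.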

Other observations

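Genes of the thyroid gland itself were near absent from these livers. Thyroglobulin (Tg) had 0 to 2 counts per mouse, the thyrotropin receptor gene Tshr 0 to 1 and the iodide transporter Slc5a5 0 to 2. Duox2, an oxidase that supplies hydrogen peroxide for hormone synthesis, had 0 counts in all 3 Control mice and 0 to 4 in the other mice. Pax8, a transcription factor of the gland, had 4 to 14 counts and was the only gene named here with enough counts to be tested. It did not pass, with a log2 fold change of 0.61 ± 0.45 in NASH+Exercise against NASH (edgeR adjusted p = 0.548) and of 0.84 ± 0.48 in NASH+Exercise against Control (edgeR adjusted p = 0.245).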
